A study of Mus musculus with 7 samples.

Results

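The genes described here are 10 secreted or membrane-bound regulators of cartilage matrix breakdown: the matrix metalloproteinases Mmp2, Mmp3, Mmp9, Mmp13, Mmp14 and Mmp16, the aggrecanases Adamts4 and Adamts5, and the metalloproteinase inhibitors Timp2 and Timp3. They were chosen by name, and all 10 were found by their Ensembl identifiers among the 43346 genes of the deposited allele counts. All 10 were among the 21805 genes that entered the test, which needed some count on either allele in each mouse, and none of the 10 fell below 10 counts in any mouse. Genes that meet this minimum of 10 are called well-counted genes here. The samples were dissected proximal and distal tibial growth plates of 7 male F1 mice from a cross of C57BL/6J (B6) and CAST/EiJ (CAST), a laboratory strain and a wild-derived strain. The mice were 21 days old, carried no engineered allele and received no treatment, so the series holds 1 condition. The comparison that the design allows is between the CAST and B6 alleles of a gene inside the same mice, that is, allele-specific expression (ASE).

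The growth plate is the cartilage that lengthens a long bone, and its hypertrophic zone is resorbed as vessels and bone-forming cells enter. Matrix metalloproteinases cut collagens and other matrix proteins with a zinc ion held by histidines, aggrecanases cut the proteoglycan aggrecan, and the tissue inhibitors of metalloproteinases (Timps) bind and block their active sites. Mmp13 and Mmp9 are known for clearing hypertrophic cartilage, and Mmp14 together with Timp2 activates the Mmp2 proenzyme at the cell surface.

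The coding bases of the zinc site, which all 8 proteinases share, are shown to mark what the members have in common. They were read from the GENCODE M21 transcripts (GRCm38/mm10) on the coding strand, with the codons of the 3 zinc-binding histidines in capitals.
Mmp2: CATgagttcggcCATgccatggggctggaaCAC
Mmp9: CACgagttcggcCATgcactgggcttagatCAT
Mmp3: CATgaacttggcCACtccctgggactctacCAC
Mmp13: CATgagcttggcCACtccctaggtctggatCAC
Mmp14: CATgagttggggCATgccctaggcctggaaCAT
Mmp16: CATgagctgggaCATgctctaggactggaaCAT
Adamts4: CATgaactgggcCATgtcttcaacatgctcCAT
Adamts5: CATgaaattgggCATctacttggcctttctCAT
The site lies in exon 8 of Mmp2 (chr8:92839279-92839311) and of Mmp9 (chr2:164951133-164951165). It lies in exon 5 of Mmp3 (chr9:7449775-7449807), Mmp13 (chr9:7276573-7276605), Mmp14 (chr14:54437627-54437659) and Mmp16 (chr4:18051748-18051780). In the aggrecanases it crosses a splice junction, from exon 3 to exon 4 in Adamts4 and from exon 2 to exon 3 in Adamts5. Of the 33 bases, the membrane-type pair Mmp14 and Mmp16 shared 29, Mmp3 and Mmp13 shared 27, and Mmp9 and Adamts4 shared 18. The inhibitors Timp2 and Timp3 carry no such site. Over whole transcripts, Mmp3 shared 3.76% of its stretches of 75 bases, the read length, with Mmp10, and Timp3 shared 20.6% with Syn3. Mmp2, Mmp9, Mmp13, Mmp14, Mmp16, Adamts5 and Timp2 shared none with another gene.

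Library totals were 14098019 to 37849667 estimated counts, lowest in mouse 7 and highest in mouse 5. These totals are above the number of read pairs that the protocol gives, and it is not stated whether the ends of a pair count separately, so counts may exceed the number of fragments and the counting intervals given here may be too narrow. On autosomal genes the CAST allele held 50.5% ± 0.128 of the counts (SD, n = 7), and on the X chromosome, of which males carry 1 copy, 8.89% ± 0.468. The labels call the tissue growth plate chondrocytes, and the chondrocyte markers (6 of 6, among them Col2a1 and Acan) summed to 51003 to 96488 CPM, counts scaled to a common library total of 1e6. The hypertrophic chondrocyte markers (4 of 4) summed to 2941 to 5657 CPM. Markers of other cells were also counted in every mouse. Those of osteoblasts (6 of 6, led by Col1a1) summed to 32920 to 66380 CPM, of osteoclasts (7 of 7) to 2298 to 3468, of neutrophils (7 of 7) to 1533 to 3075, of erythroid cells (5 of 5) to 681 to 1463, and of skeletal muscle (5 of 5) to 3057 to 5766. The lists for macrophages (5 of 5, 359 to 480 CPM), endothelium (5 of 5, 181 to 241), synovium and fibroblasts (4 of 4, 157 to 313) and adipocytes (4 of 4, 62.6 to 97.6) were lower, and no marker of any list was at 0 in any mouse. In such bulk tissue, fewer cells of a type and less RNA per cell cannot be told apart.

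The 10 genes fell into a high and a low range. Levels are given as the total of both alleles in CPM, scaled by TMM, per kb of merged exons. Mmp9 was at 583 ± 108 (SD, n = 7), Mmp2 at 187 ± 25.7, Mmp13 at 144 ± 27.6, Timp2 at 81.5 ± 8.58, Mmp14 at 52.4 ± 9.42 and Timp3 at 26.0 ± 2.03 CPM per kb. Adamts4 at 2.71 ± 0.649, Adamts5 at 2.05 ± 0.207, Mmp16 at 2.03 ± 0.276 and Mmp3 at 2.00 ± 0.934 CPM per kb lay under Timp3 in every mouse. Among 13537 well-counted protein-coding genes, the level of Mmp9 was at the 99.8th percentile, whereas those of Mmp16, Adamts5 and Mmp3 were at percentiles 35.9, 36.2 and 35.5.

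**Figure D1:**
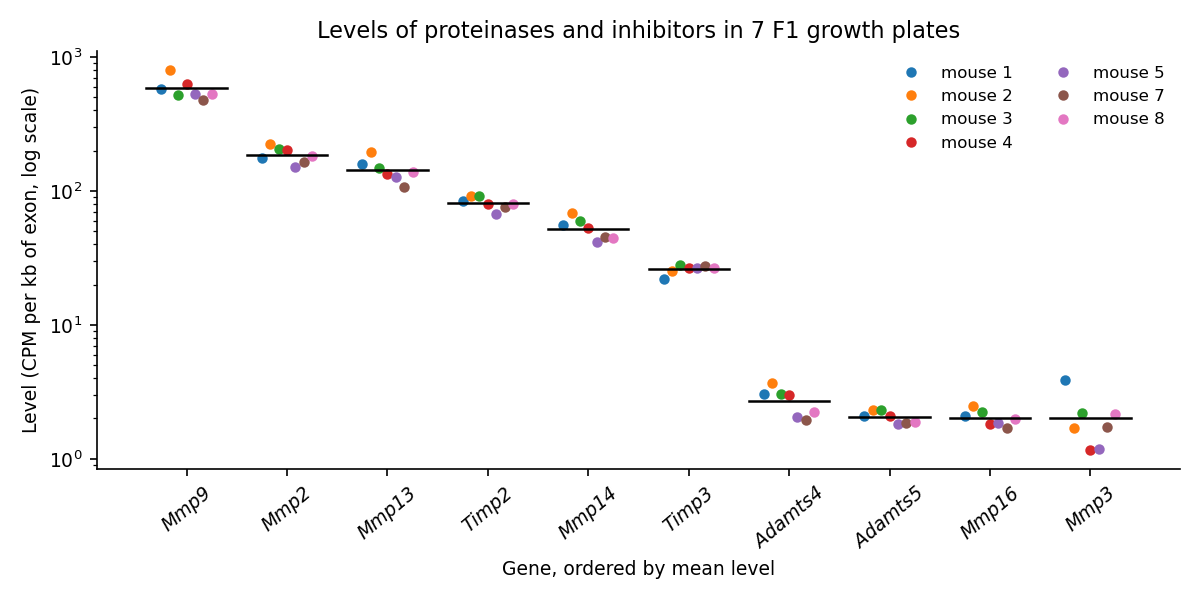
Level of each of the 10 genes in each of the 7 mice, in CPM per kb of exon on a log axis. Points are mice and lines are means. Every point of the 6 genes on the left lies above every point of the 4 genes on the right, from 21.9 CPM per kb upward on the left and from 3.91 CPM per kb downward on the right.

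Of the 9 pairs of neighbours in this order, 7 differed in level inside the mice, each with the same gene higher in 7 of 7 mice. An exact sign-flip permutation test, two-sided, gave p = 0.0156 for each of them, which is the lowest value possible with 7 mice, and 0.0201 after adjustment over the 9 pairs. The step from Timp3 to Adamts4 was the largest at 9.84-fold, and that from Mmp9 to Mmp2 was 3.10-fold. Adamts5 and Mmp16 differed by 1.02-fold (p = 0.609 in the same exact test) and Mmp16 and Mmp3 by 1.09-fold (p = 0.594), with Mmp16 above Mmp3 in 4 of 7 mice. Dividing by the longest transcript in place of the merged exons moved Mmp14 (96.5 CPM per kb) above Timp2 (85.6), and Mmp16 (3.51) above Adamts4 (2.97), so these orders rest on the length that is used. Timp2 and Mmp14 differed in both orders (exact sign-flip test, adjusted 0.0201 by merged exons and 0.0352 by the longest transcript). The test measures how steady a ratio is over mice, and the length used is the same in all mice.

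To find genes with ASE, the alleles were compared over the 7 mice. A gene was called when the edgeR likelihood-ratio test gave a false discovery rate (FDR, Benjamini-Hochberg over all 21805 tested genes) under 0.20, the threshold of the study. Of the 10 members, 3 were called: Mmp9 and Mmp3 were higher from the B6 allele and Timp3 was higher from the CAST allele. Over all tested genes 32.6% were called, 15.4% with CAST higher and 17.2% with B6 higher, and over the 15111 well-counted genes 35.4% were called, so the members' count was near this background. The median log2 fold change (CAST over B6) of the 10 members was 0.01, as it was over all tested genes. All 7 mice pointed the same way for 4 members (Mmp2, Mmp3, Mmp9 and Timp3), against 28.3% of the well-counted genes.

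Both alleles of a gene come from the same mouse, and with the mouse as a block 6 members were called by the likelihood-ratio test and 5 by the quasi-likelihood test. The share of well-counted genes called was higher too, at 50.3% and 45.8%. The genes added under the block were Mmp14 (edgeR FDR 5.50e-06 by the likelihood-ratio and 0.00801 by the quasi-likelihood test), Timp2 (0.00580 and 0.0428) and, by the likelihood-ratio test alone, Mmp2 (0.160, against 0.220).

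**Figure D2:**
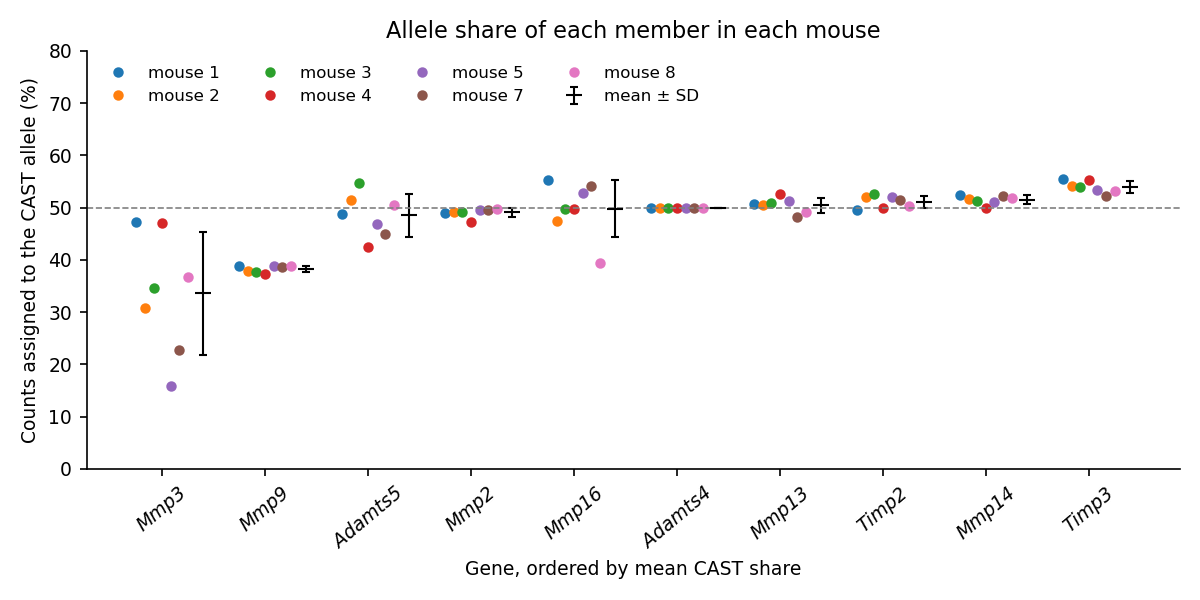
Percent of the counts of each gene that were assigned to the CAST allele, by mouse. Coloured points are mice, black marks are means ± SD (n = 7) and the dashed line is at 50%. Mmp9 sits between 37.2% and 38.8% and Timp3 between 52.2% and 55.4%, whereas Mmp3 spreads from 15.8% to 47.3% and Adamts4 sits at 50% in every mouse.

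Mmp9, a gelatinase made by osteoclasts and other cells that resorb matrix, showed a B6 excess that hardly varied. The gene lies at chr2:164940780-164955850 on the plus strand. Its totals in mice 1, 2, 3, 4, 5, 7 and 8 were 68465, 81335, 53013, 41436, 73310, 24721 and 43519 counts. The CAST share in the same mice was 38.8%, 37.9%, 37.8%, 37.2%, 38.8%, 38.6% and 38.8%. No mouse was closer to 50% than 38.8%, and the shares spanned less than 2 percentage points. On average 21103 ± 7780 counts came from CAST and 34011 ± 12425 from B6 (SD, n = 7). The log2 fold change, CAST over B6, was -0.67 (SE 0.132, edgeR FDR 4.19e-06). In mouse 7, the shallowest library, the 95% Wilson interval of the share was 38.01% to 39.23%, and such intervals cover counting error only. The SD of the log2 allele ratio over mice was 0.04, against a median of 0.26 over well-counted genes, which start at 10 counts. Genes with more counts than Mmp9 varied no more: for Acan, Col2a1, Col10a1, Col1a1, Comp and Fn1 this SD was 0.01 to 0.03. As for the size of the excess, 13.9% of the well-counted genes had a mean log2 ratio at least as far from 0. Of 15 other genes tested within 250 kb of Mmp9, 2 were called, Pltp (log2 fold change 0.76) and Snx21 (0.31), both with CAST higher.

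The other gelatinase, Mmp2 (chr8:92827291-92853420), had 8043 to 21716 counts and a CAST share of 47.3% in mouse 4 and 49.0% to 49.7% in the other mice. B6 was higher in 7 of 7 mice, by little (8460 ± 2553 against 8167 ± 2524 counts, log2 fold change -0.04, SE 0.113, edgeR FDR 0.960). The exact sign-flip test gave p = 0.0156, which becomes 0.0682 when adjusted over all tested genes. Mmp9, Mmp3 and Timp3 had the same values in this test, because 0.0156 is the lowest possible with 7 mice. It therefore does not tell Mmp2 apart from the called members. The allele ratio of Mmp9 was lower than that of Mmp2 in every mouse, by 0.64 ± 0.03 on the log2 scale (SD, n = 7, exact sign-flip p = 0.0156, adjusted 0.0208 over 4 pairs of related members chosen after the data were seen).

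Mmp9 was at 578, 804, 524, 630, 529, 481 and 532 CPM per kb in mice 1, 2, 3, 4, 5, 7 and 8, highest in mouse 2 and lowest in mouse 7. The summed osteoclast markers were also highest in mouse 2 (3468 CPM) but lowest in mouse 3 (2298 CPM). Acp5 and Ctsk made up most of this sum. Ctsk, Ocstamp, Atp6v0d2 and Calcr were highest in mouse 2, Acp5 in mouse 8, Oscar in mouse 7 and Dcstamp in mouse 3. Acp5, Oscar and Calcr were lowest in mouse 3, Ctsk, Dcstamp and Atp6v0d2 in mouse 4 and Ocstamp in mouse 1. The summed neutrophil markers were lowest in mouse 2 (1533 CPM) and highest in mouse 5 (3075 CPM). S100a8, S100a9 and Camp were lowest in mouse 2, and Ltf, Ngp, Elane and Mpo in mouse 3. The mean CAST share of the 7 osteoclast markers ran from 44.6% (Atp6v0d2) to 69.1% (Calcr), and that of the 7 neutrophil markers from 37.8% (Ngp) to 54.4% (S100a9). Calcr was the lowest osteoclast marker in level, at 1.43 to 3.60 CPM, and the next highest share was 53.1% (Oscar). The part of these cells in the Mmp9 values was not tested.

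Mmp13, the main collagenase of hypertrophic cartilage, and Mmp3, a stromelysin that cuts proteoglycans and activates other proteinases, belong to the same gene cluster on chromosome 9 and stood far apart in level. Mmp13 (chr9:7272514-7283331) had 4177 to 14879 counts, with a median of 11397. Mmp3 (chr9:7445822-7455975) had 235, 88, 112, 39, 83, 45 and 90 counts in mice 1, 2, 3, 4, 5, 7 and 8. Per kb, Mmp13 was 40.9 to 114 times as high as Mmp3 over the 7 mice, with a median of 68.3 times.

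Their promoters are shown because matches to a TATA box (TATAAA) and to an AP-1 site (TGAGTCA), the sequence bound by Fos and Jun proteins, occur in both in spite of that gap in level. Whether the matches are used was not tested. The 250 bases before the RefSeq start (GRCm38.p6) are given 5′ to 3′ with the motif matches in capitals, together with those of Mmp14, which has matches to GC boxes (GGGCGG) instead.
Mmp13, chr9:7272264-7272513, plus strand: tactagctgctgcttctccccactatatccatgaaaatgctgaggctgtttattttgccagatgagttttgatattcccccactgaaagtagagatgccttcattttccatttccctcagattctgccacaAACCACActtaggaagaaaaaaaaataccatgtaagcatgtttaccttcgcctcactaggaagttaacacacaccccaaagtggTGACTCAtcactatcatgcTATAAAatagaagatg
Mmp3, chr9:7445572-7445821, plus strand: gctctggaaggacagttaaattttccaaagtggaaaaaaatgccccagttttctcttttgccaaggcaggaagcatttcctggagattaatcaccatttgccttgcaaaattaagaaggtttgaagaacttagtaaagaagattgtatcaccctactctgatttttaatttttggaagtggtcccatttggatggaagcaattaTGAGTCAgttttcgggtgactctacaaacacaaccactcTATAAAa
Mmp14, chr14:54431348-54431597, plus strand: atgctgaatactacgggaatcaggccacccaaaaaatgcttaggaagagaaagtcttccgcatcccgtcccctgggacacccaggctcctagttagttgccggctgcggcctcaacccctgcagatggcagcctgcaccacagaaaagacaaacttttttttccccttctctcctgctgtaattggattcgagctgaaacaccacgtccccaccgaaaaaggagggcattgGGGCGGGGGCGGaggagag
TATAAA matched 16 to 11 bases before the start of Mmp13 and 7 to 2 bases before that of Mmp3, and 12.4% of 32851 mouse promoter windows of this length hold it on either strand. TGAGTCA matched on the minus strand of Mmp13, 35 to 29 bases before the start, and on the plus strand of Mmp3, 46 to 40 bases before it, and 4.46% of windows hold it. AACCACA, a sequence bound by Runx proteins, matched Mmp13 alone of the 5 members with a listed promoter, 119 to 113 bases before the start, and 4.40% of windows hold it. GGGCGG matched Mmp14 at 2 positions and Timp2 and Timp3 at 1 each, and 32.7% of windows hold it.

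The alleles of Mmp13 were close, with a CAST share of 48.2% to 52.6% and CAST higher in 5 of 7 mice (5296 ± 2104 against 5166 ± 2007 counts, log2 fold change 0.05, SE 0.138, edgeR FDR 0.938). Mmp3 had CAST shares of 47.3%, 30.8%, 34.7%, 47.1%, 15.8%, 22.7% and 36.7% in mice 1, 2, 3, 4, 5, 7 and 8. B6 was higher in every mouse, nearly even in mice 1 and 4 and farthest from even in mouse 5. On average 36.0 ± 34.8 counts came from CAST and 62.9 ± 32.9 from B6 (SD, n = 7), and the log2 fold change was -0.80 (SE 0.356, edgeR FDR 0.0930). In mouse 7 the share rested on 45 counts, and its 95% Wilson interval was 12.5% to 36.3%. Leaving out mouse 7 ended the call (edgeR FDR 0.224). The allele ratio of Mmp3 was below that of Mmp13 in 7 of 7 mice, by 1.06 ± 0.78 on the log2 scale (SD, exact sign-flip p = 0.0156, adjusted 0.0208 over the 4 pairs). This pair, too, was chosen after the data were seen. The total of Mmp3 was a whole number, to a tolerance of 0.0001, in 5 of 7 mice, and in mice 1 and 3 it was not.

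The rest of the chromosome 9 Mmp cluster was sparse apart from Mmp8, the neutrophil collagenase, with 273 to 823 counts. Mmp8 was called with B6 higher, in 7 of 7 mice (log2 fold change -0.41, SE 0.198, edgeR FDR 0.131). Mmp10, which shares sequence with Mmp3, had 2 to 51.7 counts and was called with CAST higher (1.33, edgeR FDR 0.0256), opposite to Mmp3. Its direction was not the same in all mice, with CAST higher in 5 of 7 (exact sign-flip p = 0.3125). Mmp12 had 3.05 to 26.9 counts and Mmp27 had 3.31 to 19.4. Mmp1b and Mmp7 had no count in any mouse, and Mmp1a and Mmp20 had at most 1 and 2 counts.

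**Figure D3:**
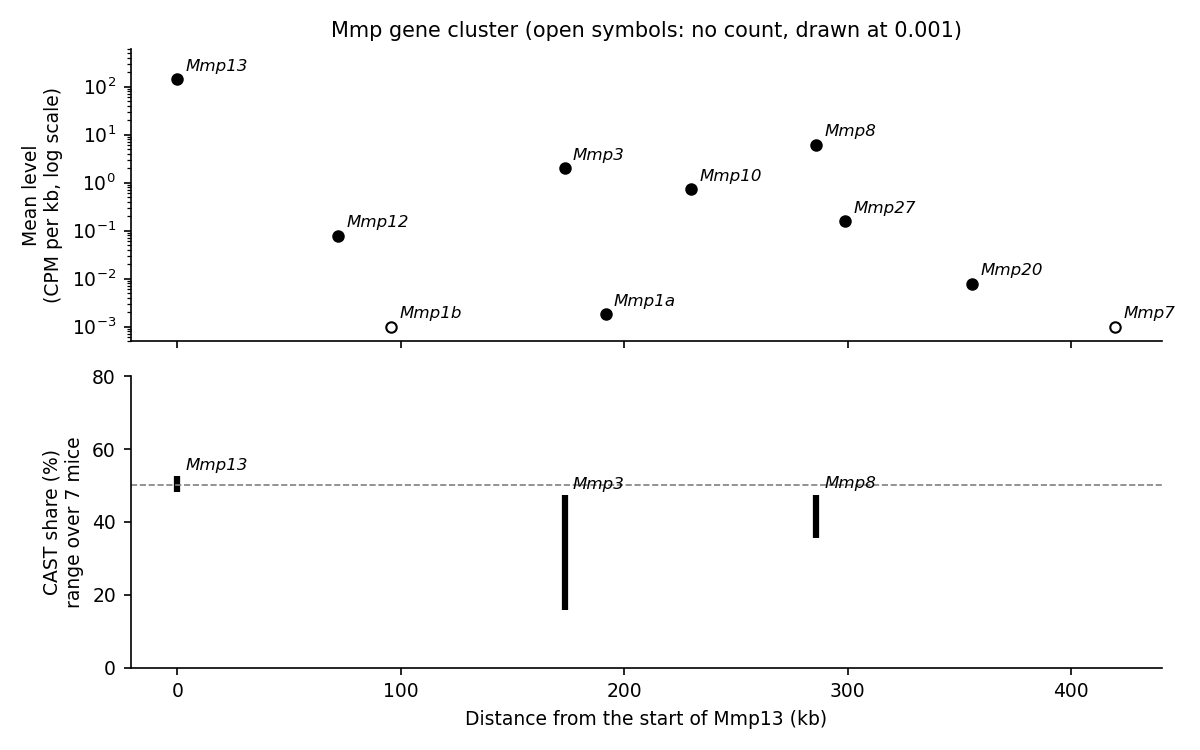
Genes of the chromosome 9 Mmp cluster by distance in kb from the start of Mmp13. The upper panel gives the mean level over 7 mice in CPM per kb on a log axis, with genes without a count drawn as open symbols at the foot, and the lower panel gives the range of the CAST share for well-counted genes. Mmp13 is the highest at 144 CPM per kb and spans 50%, whereas Mmp3 and Mmp8 lie under 50% in every mouse.

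Mmp3 was at 3.91 CPM per kb in mouse 1 and at 1.17 to 2.18 in the other mice. The summed synovial and fibroblast markers (313 CPM in mouse 1, 157 to 248 in the others) and the summed skeletal muscle markers (5766 CPM, against 3057 to 5508) were also highest in mouse 1. Within the first list only Prg4 was highest in mouse 1, at 231 CPM, while Dpt and Pi16 were highest in mouse 2 and Clec3b in mouse 4. Of the muscle markers, Acta1, Actn3 and Tnnt3 were highest in mouse 1 and Myh4 and Ckm in mouse 8. Mmp13 was highest in mouse 2 at 195 CPM per kb and lowest in mouse 7 at 108. The summed osteoblast markers had the same extremes (66380 and 32920 CPM), and Col1a1 made up nearly all of the sum (65495 CPM in mouse 2). Ibsp and Ifitm5 also had these extremes, but Sp7 was lowest in mouse 8 and Dmp1 and Phex in mouse 4. Phex was highest in mouse 1, and Sp7 and Dmp1 in mouse 2. The summed hypertrophic markers were highest in mouse 4 (5657 CPM) and lowest in mouse 1 (2941 CPM), as were Col10a1 and Ihh. Alpl was highest in mouse 4 but lowest in mouse 7. Runx2 was highest in mouse 3 and lowest in mouse 5. The part of other cell types in these values was not tested.

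Of the membrane-anchored proteinases, Mmp14 was far above Mmp16. Mmp14 (chr14:54431612-54445364), a collagenase at the cell surface and the activator of proMmp2, was 22.5 to 28.7 times as high per kb as Mmp16 (chr4:17852893-18119145), with a median of 26.5 times. Against its target, Mmp2 was 3.19 to 4.11 times as high as Mmp14 per kb, or 1.90 to 2.44 times per kb of the longest transcript. Mmp14 had 3912 to 11589 counts and a CAST share of 52.5%, 51.7%, 51.2%, 49.8%, 51.1%, 52.2% and 51.8% in mice 1, 2, 3, 4, 5, 7 and 8. CAST was higher in all mice but mouse 4 (4295 ± 1566 against 4044 ± 1441 counts, log2 fold change 0.10, SE 0.132, edgeR FDR 0.706 without the block). Mmp16 had 213 to 630 counts, and its CAST share ran from 39.3% in mouse 8 to 55.4% in mouse 1, on both sides of 50% (log2 fold change -0.00, SE 0.132, edgeR FDR 1). The log2 allele ratios of Mmp14 and Mmp16 differed by 0.10 ± 0.31 (SD, n = 7, range -0.17 to 0.73), and the exact sign-flip test gave p = 0.578.

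The aggrecanases were both low, and Adamts4 was above Adamts5 in every mouse, with Adamts5 at 0.621 to 0.954 of Adamts4 per kb. Adamts5 (chr16:85856173-85901828, minus strand), the main aggrecanase of mouse cartilage, had 291 to 767 counts. Its CAST share was 48.7%, 51.5%, 54.6%, 42.5%, 46.8%, 44.9% and 50.6% in mice 1, 2, 3, 4, 5, 7 and 8, with 3 mice above and 4 below 50%. The log2 fold change was -0.04 (SE 0.110, edgeR FDR 0.916). Its target aggrecan, Acan, was at 1079 ± 233 CPM per kb.

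Adamts4 (chr1:171250421-171260637) had 136 to 509 counts, and its deposited counts were split equally between the alleles in all 7 mice, to a tolerance of 1e-06. Such equal counts in every mouse were found for 556 of the 15111 well-counted genes (3.68%). The values therefore hold no allele difference to test, and its fitted log2 fold change of 0.02 arises from the scaling of the libraries alone. Its total was not whole in any mouse. Whether Adamts4 transcripts hold a base that separates the strains was not tested.

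Of the inhibitors, Timp2 was higher than Timp3, and Timp3 was the member called with CAST higher. Timp2 (chr11:118301069-118355740, minus strand), a soluble inhibitor that also takes part in proMmp2 activation, was at 67.0 to 91.1 CPM per kb, and Timp3 was 0.258 to 0.395 times as high. Set against the proteinases, Mmp2 was 2.09 to 2.51 times and Mmp9 5.75 to 8.82 times as high per kb as Timp2, while Timp3, the main inhibitor of the aggrecanases, was 10.4 to 14.8 times as high as Adamts5. Per kb of the longest transcript, Timp3 was 0.423 to 0.649 times as high as Timp2 and 18.0 to 25.5 times as high as Adamts5. These are ratios of RNA levels.

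Timp3 (chr10:86300372-86349506), which binds to the matrix, had 5952, 5905, 6514, 4057, 8438, 3252 and 4964 counts in mice 1, 2, 3, 4, 5, 7 and 8. Its CAST share was 55.4%, 54.0%, 53.8%, 55.2%, 53.3%, 52.2% and 53.2% in the same mice. Every mouse was above 50%. On average 3011 ± 916 counts came from CAST and 2572 ± 791 from B6 (SD, n = 7), and the log2 fold change was 0.24 (SE 0.0887, edgeR FDR 0.0310). In mouse 7 the 95% Wilson interval of the share was 50.5% to 54.0%. Timp3 lies inside Syn3, a gene of the opposite strand with a mean of 35.0 counts, and its total was not whole in any mouse. Syn3 was called with B6 higher (-0.46, edgeR FDR 0.193), opposite to Timp3.

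Timp2 had 4295 to 11055 counts and a CAST share of 49.6% to 52.5%, with CAST higher in 5 of 7 mice (4309 ± 1370 against 4109 ± 1266 counts, log2 fold change 0.08, SE 0.10, edgeR FDR 0.680 without the block). Cep295nl lies inside Timp2 on the same strand, with a mean of 122 counts. The allele ratio of Timp3 was above that of Timp2 in 7 of 7 mice, by 0.16 ± 0.12 on the log2 scale (SD, exact sign-flip p = 0.0156, adjusted 0.0208 over the 4 pairs). This pair, too, was chosen after the data were seen.

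Around these 10 genes, 57 other genes of matrix turnover were looked at in 5 lists, of which 52 were tested and 24 were called, 14 with CAST higher and 10 with B6 higher, against 32.6% of all tested genes. With the mouse as a block 38 of the 52 were called, where 42.7% of all tested genes were. Of the 52, 48 were well counted, and the shares over well-counted genes were higher, at 35.4% without the block and 50.3% with it. Of the other matrix metalloproteinases, 12 of 17 were tested and 6 called (4 with CAST and 2 with B6 higher), with Mmp15, a membrane type (log2 fold change 0.40), and Mmp23 (-0.46) among them. Of these calls, Mmp10, Mmp12 and Mmp27 had under 10 counts in some mouse, and among well-counted genes 3 were called, Mmp15 with CAST higher and Mmp8 and Mmp23 with B6 higher. Mmp23 at 9.38 and Mmp8 at 6.18 CPM per kb were the highest of this list, so none approached Mmp9, Mmp2 or Mmp13. Of 17 other Adamts proteinases, 7 were called (5 with CAST and 2 with B6 higher). Adamts17 had the largest log2 fold change, with a CAST share of 70.5% ± 3.85 (SD, n = 7, log2 fold change 1.25, edgeR FDR 3.80e-29), and of the others Adamts18 (0.57), Adamts7 (0.55) and Adamts15 (0.29) were called with CAST higher and Adamts9 (-0.39) with B6 higher in 7 of 7 mice. The count was 4 without mouse 3. Adamts2, a procollagen processing enzyme, was the highest at 26.6 CPM per kb, followed by Adamts10 at 8.25. Adamts10 was not called, and Adamts2 was called only with the mouse as a block (edgeR FDR 0.0262 by the likelihood-ratio test), B6 being higher in 6 of 7 mice.

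Of 4 other inhibitors, 2 were called, both with B6 higher, and 1 without mouse 8. Over the well-counted genes 35.4% were called. Timp1, at 75.7 ± 10.6 CPM per kb close to Timp2, is on the X chromosome and had a CAST share of 1.90% ± 0.936 (SD, n = 7, log2 fold change -5.66). The male mice carry 1 X chromosome, so the call of Timp1 was fixed in advance and tests no difference between alleles. Timp1 is counted among the 24 called list genes and the 10 with B6 higher. A2m, a proteinase trap, had a log2 fold change of -0.30 (edgeR FDR 0.102), and Reck at 7.93 CPM per kb, an inhibitor at the cell surface, was called only with the mouse as a block (edgeR FDR 0.152 by the likelihood-ratio test). Of 11 genes for activation and clearance, 7 were called, 4 with CAST higher and 3 with B6 higher, beside the same 35.4%. The count was 4 at an FDR under 0.05. With the mouse as a block it was 10 by the likelihood-ratio test, where 50.3% of well-counted genes were called. The urokinase Plau was higher from CAST (0.89, edgeR FDR 2.31e-10) and its receptor Plaur higher from B6 (-0.66, edgeR FDR 0.00128). Furin (0.27), which activates Mmp14, and Htra1 (0.35) were higher from CAST, and Pcsk5 (-0.29) and Bsg (-0.21), an inducer of metalloproteinases, were higher from B6. Bsg at 143 and Sdc4 at 127 CPM per kb led this list, and Sdc4 was called only with the block (edgeR FDR 2.22e-07 by the likelihood-ratio test). Of 8 matrix substrates, Col4a1 was higher from CAST (0.34) and Vcan from B6 (-0.54), and Col1a1 at 7092 and Col2a1 at 5814 CPM per kb were the highest. With the mouse as a block all 8 substrates were called by the likelihood-ratio test, where 50.3% of well-counted genes were. Acan (0.20) and Comp (0.20), with CAST higher in 7 of 7 mice, were among them. So were Col1a1 and Col10a1, whose CAST shares of 50.6% and 50.8% were close to the 50.5% of all autosomal genes.

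**Figure D4:**
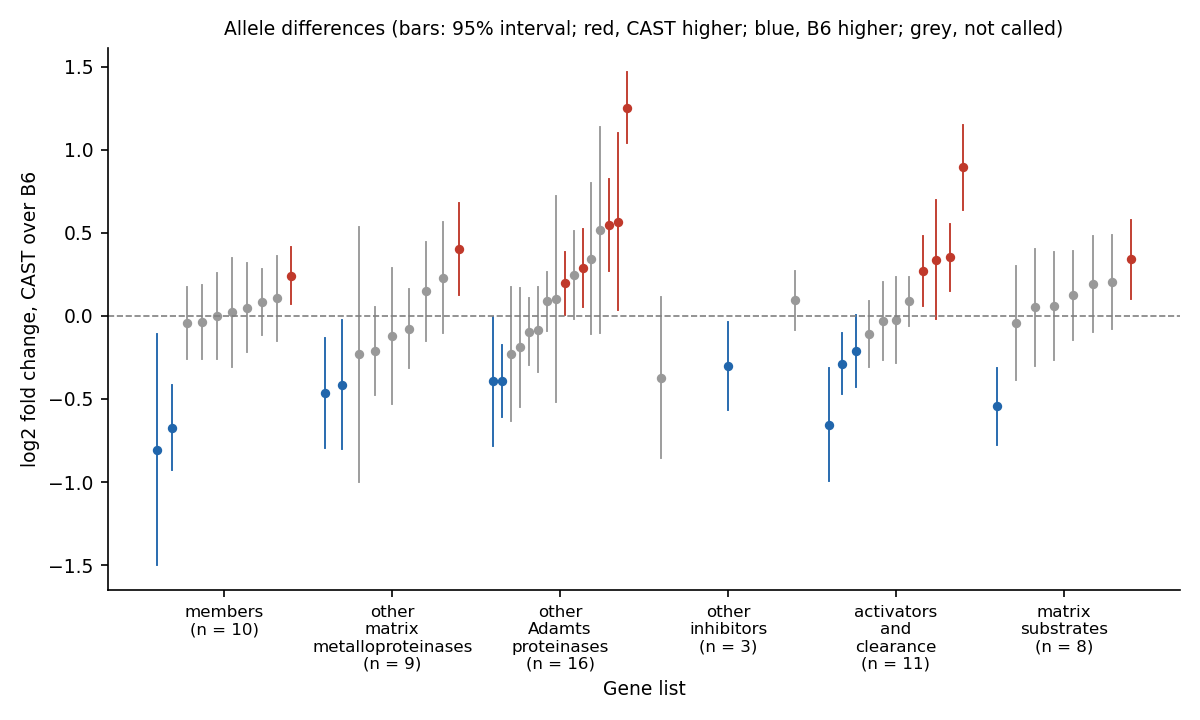
log2 fold change (CAST over B6) with 95% interval for the 10 members and for the well-counted genes of the 5 lists, Timp1 left out. Red genes were called with CAST higher, blue genes with B6 higher and grey genes were not called, and some called genes have an interval that reaches 0 because the FDR threshold was 0.20. Of the members, Mmp3 and Mmp9 lie below 0 and Timp3 above it.

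The members also differed in how much they varied between mice. The coefficient of variation of the CPM was 46.6% for Mmp3, 24.0% for Adamts4, 19.2% for Mmp13, 18.6% for Mmp9, 18.0% for Mmp14 and 13.7% for Mmp2. It was 13.6% for Mmp16, 10.5% for Timp2, 10.1% for Adamts5 and 7.79% for Timp3, where the median over the 13537 protein-coding genes was 12.8%. Both inhibitors were below this median and all proteinases but Adamts5 were above it, a difference that was not tested. With plain library totals the median was 14.5% and Mmp2 was below it too, at 12.1%.

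Over the 7 mice, Pearson's r between the log2 CPM of the 9 members other than Timp3 had a median of 0.80 over 36 pairs and was highest between Mmp14 and Adamts5 (0.96), Mmp14 and Adamts4 (0.95) and Mmp13 and Mmp16 (0.95). Mmp3 followed the others less, with r from -0.10 with Mmp9 to 0.51 with Timp2. For Timp3 the values were lower still, with r from -0.68 with Mmp3 to 0.04 with Mmp2. With plain library totals in place of TMM the medians were 0.79 for those 36 pairs and -0.17 for the 9 pairs with Timp3. These values describe 7 mice whose libraries the genes share. Among 11230 other protein-coding genes with at least 50 counts, the pattern of Mmp9 over mice was closest to Cpz (r = 0.99), Fam189a2 and Fam102a (0.97 each), and that of Mmp2 to Tgfb3, Gja4 and Cyp1b1 (0.98 each). Mmp14 was closest to Adgra2 (0.99), Cd34 (0.99) and Gja5 (0.98), Mmp13 to Armcx3, Rab7b and Ctbp2 (0.97 each), and Adamts5 to Chd3, Myof (0.99 each) and Gtf2ird1 (0.98). Adamts4 was closest to Ptgfrn (0.99), Shc2 and Nid1, Timp2 to Rbms3, Pla2g4a and Prrg3, and Timp3 to Bloc1s4, Kif21a and Arvcf, at r of 0.95 to 0.98 where not given. These are the highest of 11230 values, each over 7 mice, and such a search can give a high r without any link between genes. No link was tested.

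**Figure D5:**
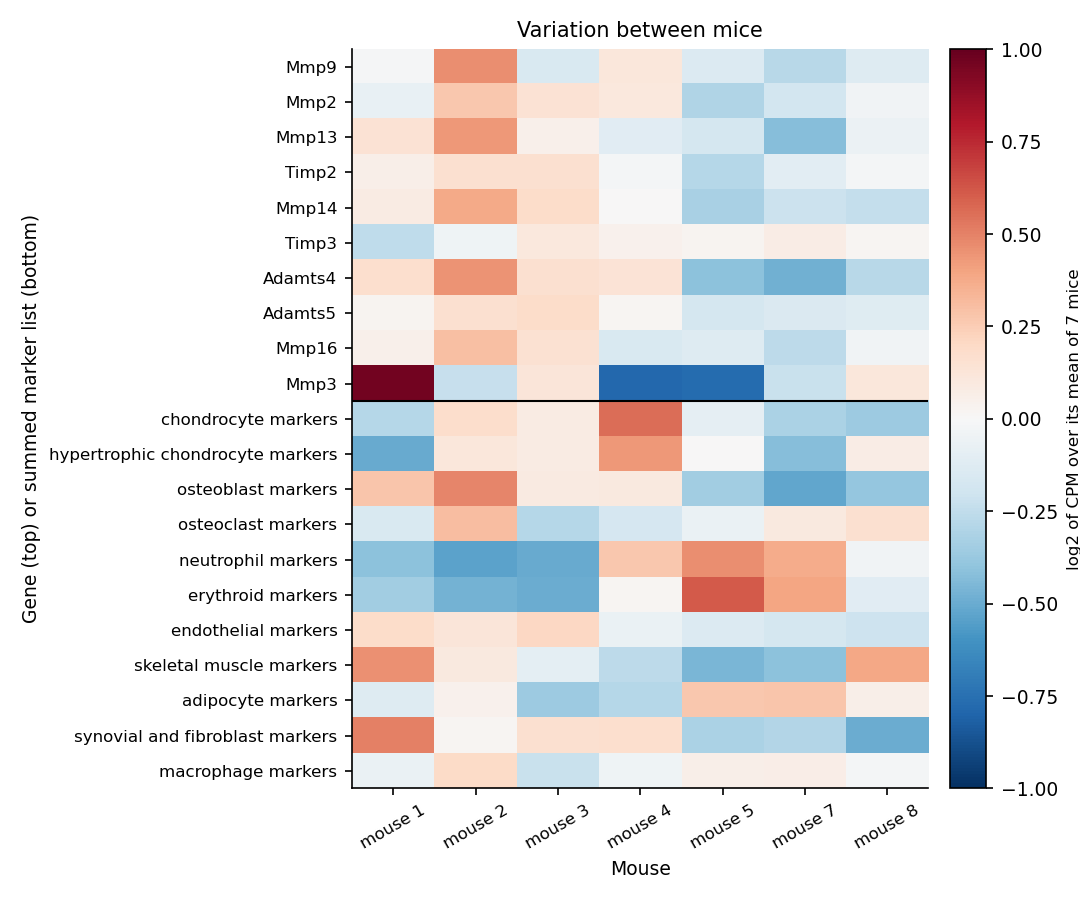
log2 of the CPM over its mean of 7 mice for the 10 members (top) and for the summed CPM of 11 marker lists (bottom), one column per mouse, with red above and blue below the mean. Most proteinases are highest in mouse 2, Mmp3 is highest and Timp3 lowest in mouse 1, and the neutrophil and erythroid lists run higher in mice 5 and 7 than in mice 1 to 3.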

How the data were processed

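Growth plate RNA of 7 F1 mice was sequenced after ribosomal depletion (stranded, paired ends of 75 bases). The authors aligned reads with Bowtie to a joint B6 (mm10) and CAST transcriptome and deposited EMASE estimated counts per gene and allele, with no normalization and with fractions. SAMtools is also listed in the submitters' processing notes. Each read end and lane was processed separately.

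Gene names and coordinates came from GENCODE M21, which names 42462 of 43346 identifiers, and promoters from RefSeq for 5 of 10 members. Counts were rounded and fitted with edgeR 4.0.16 in R 4.3.3 (TMM, glmFit, glmLRT, FDR under 0.20), and SEs were derived from the likelihood ratio. Single values used exact sign-flip tests (pseudocount 0.5). Each replicate is a separate mouse. Alleles are paired by animal: the 2 alleles deviated together within a mouse (mean r 0.18, lowest 0.05) and not across mice (mean r -0.03). Alternatives were the block, DESeq2 1.42.0, other filters, scalings, lengths and pseudocounts, and leaving out each mouse.

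Named genes were the 10 members, list genes called with at least 10 counts and 1 direction in 7 mice, the 2 highest of each list, and the 3 genes most like each member. Members and lists were chosen with earlier results of these data known. Not every overlap between genes is reported here.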

Additional observations from a re-analysis of the deposited data

Results flagged for a closer look

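In 3 of 19 sets of 7 mouse values, 1 mouse stood apart from the others by Dixon's criterion, where chance gives about 0.95 sets, that is, 1 in 20. The log2 allele ratio of Mmp2 was -0.15 in mouse 4 and -0.06 to -0.02 in the others. Mmp3 was at 7.04 CPM in mouse 1 and 2.10 to 3.93 in the others, and with plain library totals, chosen after the data were seen, it was at 7.70 against 1.86 to 4.07. Timp3 was at 178 CPM in mouse 1 and 206 to 228 in the others, but with plain library totals mouse 1 was at 195 and the others at 193 to 236, so that this mouse did not stand apart.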

How the results depend on the processing

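Mmp9 and Timp3 were called under all 17 alternatives that were run for them, with log2 fold changes of -0.69 to -0.67 and 0.22 to 0.26. Mmp3 lost its call at an FDR threshold of 0.05 and without mouse 7. The count of called members was 6 with the mouse as a replicate block and the likelihood-ratio test and 5 with the block and the quasi-likelihood test, and it changed by at most 1 under the other 15 alternatives, with a range of 2 to 3 when each mouse was left out. The count over the 57 list genes was 38 with the block and 15 at an FDR under 0.05, with a range of 20 to 24 when each mouse was left out, and the count of neighbours that differed in level ranged from 6 to 7 with mice left out and was 8 per kb of the longest transcript. The sign of 2 members near 0 turned. The log2 fold change of Mmp16 was 0.0054 with the replicate block (0.0058 by quasi-likelihood), 0.0064 with unrounded counts and -0.064 to 0.096 with mice left out, and that of Adamts5 was -0.11 to 0.01 with mice left out. The difference of Mmp14 and Mmp16 ran from -0.0084 to 0.14 with mice left out. The causes were not tested. Depth limits Mmp3 most, with 39 counts in mouse 4.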
